A study of Arabidopsis thaliana with 42 samples.

Results

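The dusk step of wild-type Arabidopsis thaliana is the change in messenger RNA between ZT14 and ZT18, where ZT (zeitgeber time) counts hours after lights on. It was measured in 6 of the 42 libraries of the series, the 3 wild-type libraries of ZT14 and the 3 of ZT18 in long days, chosen by the genotype and time in their labels. Seedlings of the Col-0 accession were grown on MS medium at 22 °C in cycles of 16 h light and 8 h darkness, and seedlings were harvested every 4 h from day 9. ZT14 therefore lies 2 h before lights off and ZT18 lies 2 h after it. The libraries of the link1link2 double mutant at the same times, 3 per time, were grown in the same conditions. They were used to ask where the step differed. All 36 long-day libraries were fitted together, so mutant libraries also shaped the low-count filter and the spread behind the wild-type p-values. Separate cultures are not stated for the replicates, and the p-values then reflect only library-to-library spread, which may be technical. The hours of the clock and the loss of light change together between ZT14 and ZT18 and cannot be told apart in this design.

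The plant circadian clock is a network of repressors and activators that follow each other through the day. CCA1 and LHY, MYB-like factors of dawn, repress evening genes. The PRR proteins follow in sequence through the day, and the evening complex of ELF3, ELF4 and LUX acts around dusk. At lights off, photosynthesis stops and growth and respiration come to depend on starch stored in the chloroplast during the day. When sugar runs low, the kinase SnRK1 turns on genes for the breakdown of amino acids and other reserves, many of them first found as dark-inducible (DIN) genes.

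The 6 libraries held 7539435 to 9393758 counts each, over 33602 loci. The filter on low counts was applied over all 36 long-day libraries, and 20518 genes passed it and were tested. Some of these had almost no counts in the 6 libraries, such as LNK4 with 2 at each time. Chloroplast-encoded transcripts took 0.678% to 1.69% of their counts. The total of 11 leaf and shoot markers was 19901 to 23400 CPM (counts scaled to a common library size with TMM factors) at ZT14 and 20605 to 23419 CPM at ZT18. Root markers summed to 227 to 277 CPM at ZT14 and 250 to 290 CPM at ZT18, so the ranges overlapped for both organs. RBCS1A and LHCB1.3 made up most of the leaf and shoot total, with means of 13941 and 7119.5 CPM at ZT14. The total therefore says little about the other members. In the test described below, 2 of the 11 leaf and shoot markers were lower at ZT18 (18.2%, against 19.5% of all genes) and none higher. These were CER1 (1.83-fold) and GL2 (1.19-fold), and GL2 lost the call in some settings that left out a library. GL2 also overlaps a locus with 806% of its counts and is uncertain. Of 13 seed and embryo markers, 10 were too low to test. In bulk RNA from seedlings, fewer cells of a type and less RNA per cell cannot be told apart.

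At an adjusted p under 0.05 in edgeR's quasi-likelihood test, 7712 genes were called, which is 37.6% of those tested. Of these, 3719 (18.1%) were higher and 3993 (19.5%) were lower at ZT18. Most changes were small, with a median size of 0.48 on the log2 scale, and the median over all genes was -0.00. Changes of at least 2-fold were called for 530 genes that rose (2.58%) and 671 that fell (3.27%), and changes of at least 4-fold for 96 and 153. The 3 ZT14 and 3 ZT18 libraries did not overlap for 9428 genes (45.9%).

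**Figure D1:**
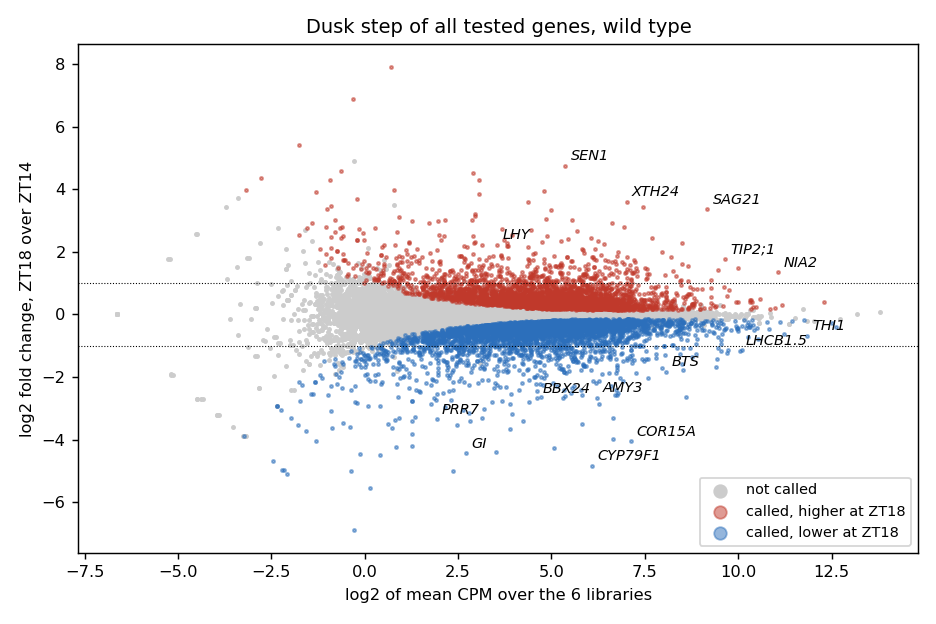
Each point is 1 of the 20518 tested genes, with the log2 of its mean CPM over the 6 wild-type libraries on the x axis and its log2 fold change, ZT18 over ZT14, on the y axis. Red points were called higher, blue points called lower and grey points not called, and dotted lines mark a 2-fold change.

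The step was an extreme of the wild-type day for many of the 2-fold genes. Of the 530 that rose, 298 (56.2%) had their highest mean of the 6 harvest times at ZT18 and 153 at ZT22, while 233 (44%) had their lowest mean at ZT14 and 184 at ZT2. Of the 671 that fell, 248 (37%) were highest at ZT14 and 225 at ZT2, and 309 (46.1%) were lowest at ZT18 and 241 at ZT22. Over all tested genes 15% were highest and 13.3% lowest at ZT18. The choice of genes by this step makes ZT14 and ZT18 likely extremes, so these shares are a description.

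Restricted to genes whose log2 CPM averaged 3 or more and whose groups did not overlap, SEN1, a gene of dark-induced senescence, had the largest rise. Its level was 3.01, 3.33 and 2.39 CPM at ZT14 and 89.9, 67.8 and 82.4 CPM at ZT18, so each dark library stood far above each light library. The change was 27.1-fold, or 4.76 ± 0.31 on the log2 scale (SE, n = 3 per time, adjusted p = 1.89e-12). EXL1, of the EXORDIUM family of sugar- and growth-related proteins, went from 0.557, 0.936 and 0.882 CPM to 15.5, 17.3 and 14.5 CPM (log2 4.29 ± 0.55, adjusted p = 5.4e-07). XTH24, a xyloglucan endotransglucosylase/hydrolase, rose from 12.8, 26.5 and 19.2 CPM to 265, 196 and 251 CPM (log2 3.6 ± 0.33, adjusted p = 1.83e-09). XTH22, an enzyme of the same family, rose 10.2-fold, and BXL1, a beta-xylosidase, 7.55-fold. ABCB21, an auxin transporter, rose 8.33-fold. SAG21, a small senescence-associated protein, rose from 87.7, 101 and 116 CPM to 1038, 886 and 1231 CPM (log2 3.37 ± 0.21, adjusted p = 1.38e-12), and its mean was higher again at ZT22, at 2639.9 CPM. The other members of the 12 largest rises were AT4G36850, AT1G50040, AT1G15125, AT3G15450 and AT3G15356, with rises of 8.1-fold to 15.4-fold. AT1G15125 overlaps a locus with 553% of its counts, and its value is uncertain because no strand setting is given for the counting.

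The largest of the 12 falls was that of CYP79F1, which makes the first committed step of methionine-derived glucosinolates, the sulfur-rich defence compounds of the cabbage family. It fell from 118, 134 and 140.4 CPM to 3.93, 3.73 and 6.05 CPM (log2 -4.84 ± 0.26, adjusted p = 4.61e-14). The dark libraries were far below the light libraries without exception for this gene. AOP2, which modifies the glucosinolate side chain, went from 30.4, 22.1 and 29.5 CPM to 2.17, 2.39 and 1.92 CPM. FMO GS-OX3 and FMO GS-OX1, flavin monooxygenases of the same side chains, fell 10.7-fold and 9.92-fold. COR15A, a chloroplast protein that protects membranes in the cold, dropped from 315, 231 and 242 CPM to a mean of 15.7 ± 7.07 CPM (SD, n = 3) (log2 -4.06 ± 0.32, adjusted p = 7.64e-11). BHLH100, a transcription factor of the iron-deficiency response, went from 98.8, 71.3 and 143 CPM to 5.27, 10.2 and 11.9 CPM (log2 -3.50 ± 0.50, adjusted p = 2.98e-06). SQP1, annotated as an oxidoreductase, and its neighbour AT5G24155 fell 19.2-fold and 20.9-fold, and COR15B, KIN2, TBL26 and AT4G16880 completed the 12. COR15B overlaps a locus with 53.3% of its counts and is uncertain.

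**Figure D2:**
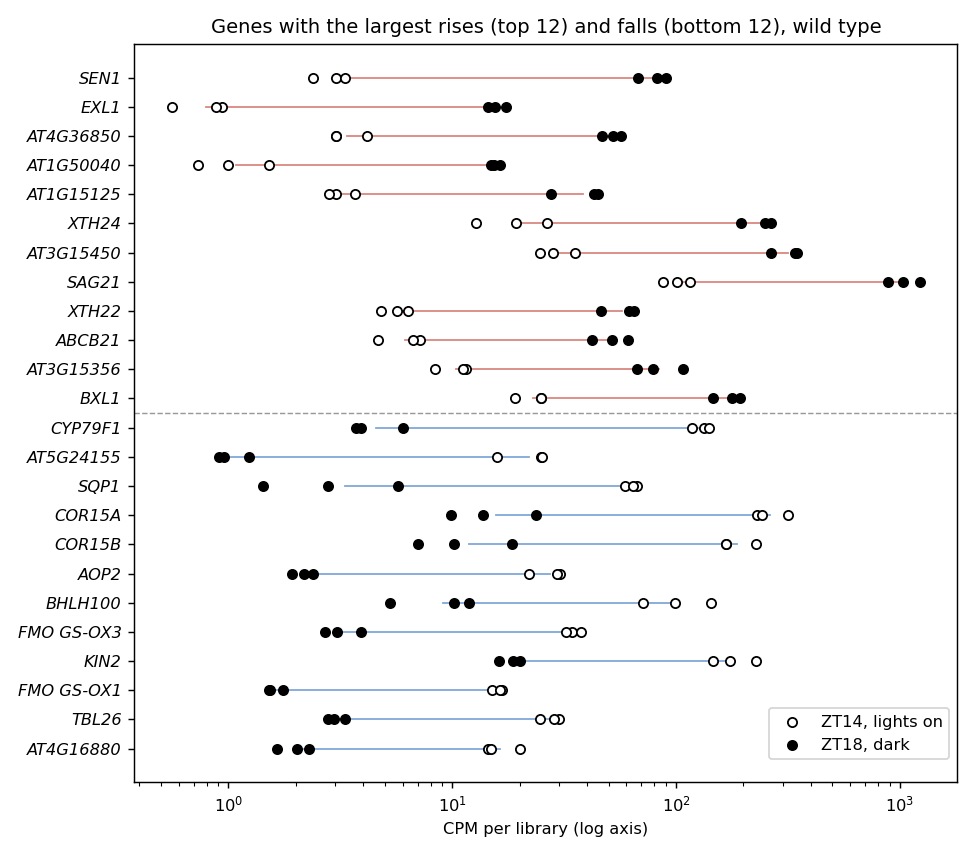
Each row is a gene and each circle 1 wild-type library, open for ZT14 and filled for ZT18, on a log axis of CPM, with a line between the group means. The circles of the groups do not overlap in any row, which the choice of these 24 genes required.

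In CPM, the largest gains were in NIA2 and RCA and the largest losses in THI1 and in RBCS2B and RBCS1B, copies of the small Rubisco subunit. NIA2, the main nitrate reductase, was at 1200.2, 1232 and 1217 CPM at ZT14 and at 3009, 2834 and 3446 CPM at ZT18 (log2 1.35 ± 0.18, adjusted p = 8.59e-07). The Rubisco activase gene RCA went from 3999, 4611 and 4436 CPM to 5763, 5418 and 6041 CPM, which is 1.32-fold. AT2G45180, annotated in a lipid-transfer protein superfamily, rose 2.81-fold and TIP2;1, a water channel of the vacuole, 3.44-fold, and SAG21 was the other gene among the 5 largest gains. THI1, an enzyme of thiamine synthesis, fell from 4298, 4920.3 and 4286 CPM to 2756, 2515 and 3183 CPM, which is 1.6-fold. RBCS2B and RBCS1B fell 1.31-fold and 1.21-fold, TKL1, a transketolase of the Calvin cycle, 1.54-fold, and GER3, a germin-like protein, 2.2-fold. The small-subunit copies RBCS1A and RBCS3B, which had more counts, were not called, at log2 0.07 ± 0.07 and 0.01 ± 0.07. Reads shared between the near-identical RBCS copies may have been split between them, so each copy's value is uncertain.

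Of 16 dawn-class clock genes, 6 rose (37.5%, against 18.1% of all genes) and 6 fell (37.5%, against 19.5%). The 6 that rose were LHY, CCA1, RVE1, RVE2, RVE4 and RVE8. Other members with their highest mean at ZT2 did not rise, such as LNK1 and LNK2, at 252 and 729.5 CPM at ZT2. LHY was at 3.79, 4.99 and 3.4 CPM at ZT14 and 18.9, 19.5 and 19.7 CPM at ZT18 (log2 2.23 ± 0.15, adjusted p = 7.25e-16). RVE8, a MYB-like activator of evening genes, went from 4.9, 3.75 and 4.92 CPM to 13.6, 13.3 and 13.6 CPM (log2 1.59 ± 0.15, adjusted p = 6.81e-12), and its relative RVE4 rose 2.68-fold. All ZT18 libraries lay above all ZT14 libraries for these 3 genes, although both times were far below the ZT22 means of 626 CPM for LHY and 252 CPM for RVE4. RVE1 rose 1.91-fold and RVE2 1.31-fold. CCA1 was close to its daily minimum, at 2.12, 1.35 and 2.14 CPM against 2.27, 2.96 and 3.53 CPM, and its log2 change of 0.66 ± 0.26 (adjusted p = 0.044) was not called under 10 of the 18 alternative settings, with values of 0.46 without ZT14 replicate B and 0.51 without ZT18 replicate C.

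Among the 6 members that fell were PRR7 and LNK1. PRR7, a repressor of LHY and CCA1, went from 7.13, 6.24 and 7.31 CPM to 0.826, 0.382 and 0.806 CPM (log2 -3.34 ± 0.26, adjusted p = 7.52e-14). LNK1, a light-induced coactivator that works with RVE8, fell from 4.9, 5.31 and 3.53 CPM to 0.517, 0.573 and 0.302 CPM (log2 -3.28 ± 0.27, adjusted p = 1.78e-13). LNK2, its partner, was at 7.46, 7.08 and 8.19 CPM and then at 7.44, 8.6 and 6.05 CPM, with overlapping groups and a log2 difference of -0.03 ± 0.20. RVE7 fell 2.22-fold and AT5G52660 1.43-fold. PRR9, at 0.668, 0.624 and 0.252 CPM against 0.103, 0 and 0.101 CPM, and ASG4, under 1 CPM in all 6 libraries, were called lower but rested on few counts. ASG4 was not called without ZT14 replicate B, and it overlaps a locus with 861% of its counts. AT4G01280, LNK3 and LNK4 were not called.

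Of 21 evening-class clock genes, 10 fell (47.6%, against 19.5% of all genes) and 3 rose (14.3%, against 18.1%). GI, a partner of the blue-light receptor FKF1, had the largest fall among them, from 8.57, 16.3 and 12.4 CPM to 0.93, 0.764 and 0 CPM (log2 -4.43 ± 0.30, adjusted p = 1.09e-13). PRR3 went from 35.7, 37.5 and 37.2 CPM to 4.96, 4.68 and 6.05 CPM (log2 -2.81 ± 0.13, adjusted p = 1.01e-20). FKF1 itself fell 5.35-fold, with the limit that it overlaps a locus with 356% of its counts. Most of these genes had passed their peak by ZT14: GI stood at 194 CPM at ZT10. The central repressor TOC1 fell less, from 142, 132 and 136 CPM to 75.6, 74 and 70.9 CPM (log2 -0.90 ± 0.06, adjusted p = 9.08e-17). In the evening complex, ELF4 fell 2.23-fold and LUX 2.04-fold, while ELF3 was at 124 ± 2.73 CPM and 126 ± 6.01 CPM (SD, n = 3; log2 0.03 ± 0.06, not called). GRP7, an RNA-binding protein under clock control, fell from 1043, 993 and 1071 CPM to 484, 477 and 429.8 CPM. PRR5, JMJD5 and ELF4-L2 were the other members that fell, and LKP2, TCP21 and ELF4-L4 rose by 1.36-fold to 1.6-fold. ZTL, BOA, COR27, AT4G33980, GRP8, ELF4-L1 and ELF4-L3 were not called. ELF4-L2 and ELF4-L4 each lost the call in at least 1 setting that left out a library.

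**Figure D3:**
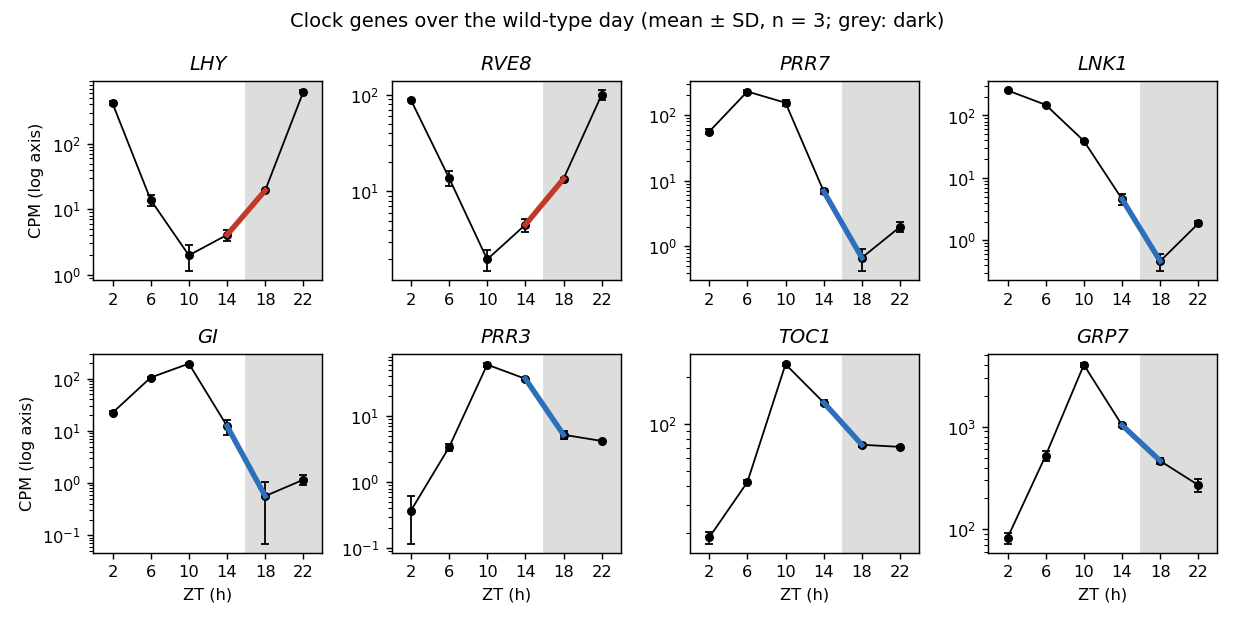
Mean CPM (log axis) with SD bars of 3 wild-type libraries at each of the 6 harvest times, with hours of darkness in grey and the step from ZT14 to ZT18 in red where it rose and blue where it fell. LHY and RVE8 rise toward dawn, and the other 6 genes fall across lights off from an earlier peak.

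Genes of darkness and sugar starvation formed the list with the highest median. Of 32 tested, 23 rose (71.9%, against 18.1% of all genes), none fell and 9 were not called, and the median log2 change was 1.22 against -0.00 over all genes. Of the 23, 19 rose at least 2-fold, beside 2.58% of all genes. DIN10, a raffinose synthase-like gene, went from 94.3, 153 and 120.3 CPM to 698, 587 and 508 CPM (log2 2.29 ± 0.29, adjusted p = 3.97e-07). ASN1, an asparagine synthetase that stores nitrogen in the dark, was at 0.668, 3.54 and 0.252 CPM and rose to 21.4, 11.6 and 9.27 CPM (log2 3.14 ± 0.75, adjusted p = 0.00158). The SnRK1 subunit gene AKINBETA1 rose from 19.2, 20.2 and 16.4 CPM to 67.9, 72.4 and 61.7 CPM (log2 1.85 ± 0.09, adjusted p = 9.14e-20). All 4 trehalose-phosphate synthase-like genes on the list rose, TPS8 3.09-fold, TPS9 2.41-fold, TPS10 3.71-fold and TPS11 3.63-fold. The glutamate dehydrogenases GDH1 and GDH2 rose 2.15-fold and 2.25-fold, ERD5, a proline dehydrogenase, 3.68-fold, and ATG8E, of the autophagy machinery, 2.57-fold. STP1, a hexose importer, rose 2.6-fold and EXO, the namesake of the EXORDIUM family, 5.13-fold. DIN11 was at 0.111, 0.52 and 0.126 CPM and at 7.33, 1.24 and 0.907 CPM, with 1 high library at ZT18, and was not called (adjusted p = 0.0526). MCCB and STP4 were not called either, at log2 values of 0.19 ± 0.09 and 0.33 ± 0.15.

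In starch breakdown, 17 of 20 tested members fell (85%, against 19.5% of all genes), 2 rose and 1 was not called, with a median log2 change of -0.96. Of the 17, 9 fell at least 2-fold, beside 3.27% of all genes. GWD1, the glucan water dikinase that opens the granule for attack, went from 314, 352 and 305 CPM to 119.7, 119 and 131 CPM (log2 -1.39 ± 0.08, adjusted p = 1.77e-18). AMY3, a plastid alpha-amylase, fell from 107, 169 and 111 CPM to 21.3, 18.4 and 21.8 CPM (log2 -2.66 ± 0.12, adjusted p = 6.46e-18). The debranching enzyme ISA3 went from 56, 51.5 and 47.6 CPM to 18.4, 17.8 and 15.6 CPM (log2 -1.58 ± 0.09, adjusted p = 1.77e-18). The cytosolic phosphorylase PHS2 fell 2.67-fold, the phosphatase SEX4 2.39-fold, the glucanotransferase DPE2 2.25-fold and the maltose exporter MEX1 1.48-fold. Among the beta-amylases, BAM6 fell 6.82-fold and BAM3, a main producer of maltose at night, 1.99-fold. BAM6 overlaps a locus with 49.1% of its counts. BAM4 and BAM9, which lack catalytic activity, were the members that rose, by 1.34-fold and 1.39-fold, and they overlap loci with 251% and 64.6% of their counts. These falls continue from a peak in the light for 3 of the genes: the ZT10 means of AMY3, ISA3 and PHS2 were 354, 83.4 and 626 CPM.

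In starch synthesis 13 of 16 tested members fell (81.2%, against 19.5% of all genes), 1 rose and 2 were not called, with a median of -0.45. ISA2, a debranching isoamylase of granule formation, fell from 86.8, 93.5 and 84.1 CPM to 26.3, 29.6 and 28 CPM (log2 -1.65 ± 0.07, adjusted p = 2.35e-22). APL3 and APL4, large subunits of ADP-glucose pyrophosphorylase, fell 3.29-fold and 2.86-fold, and the starch synthase SS1 2.05-fold. GBSS1, the granule-bound synthase, rose from 4.57, 5.41 and 6.3 CPM to 6.61, 8.79 and 14.2 CPM (log2 0.87 ± 0.21, adjusted p = 0.00163).

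Of 26 light-harvesting genes 16 fell (61.5%, against 19.5% of all genes), with 2 that rose and 8 not called (median log2 -0.41). LHCB1.5 went from 1738, 975 and 1668 CPM to 596, 626 and 742 CPM, and LHCB1.2 from 1199, 989.9 and 1297 CPM to 436, 393 and 762 CPM. Their ZT10 means were 9945 and 7267 CPM, so most of their fall from ZT10 had come before ZT14. For LHCB1.4 the ZT14 replicate B stood with the dark libraries, at 454 CPM between 1385 and 1193 CPM, against 299, 362 and 462 CPM at ZT18. With the 6 libraries fitted alone LHCB1.4 was not called (log2 -1.43). ELIP1, an early light-induced protein, fell 11.7-fold, and its ZT10 mean of 6.96 CPM was below its ZT14 mean of 10.2 CPM. LHCB4.2, a minor antenna protein of photosystem II, rose from 245, 222 and 259.9 CPM to 449, 449 and 510.4 CPM (log2 0.95 ± 0.09, adjusted p = 2.34e-11), and OHP2 rose 1.13-fold. OHP2 was not called when ZT14 replicate A or B, or ZT18 replicate B or C, was left out. LHCB1.3, a copy with more counts than LHCB1.2, LHCB1.4 and LHCB1.5, had means of 7119.5 and 6465 CPM and was not called (log2 -0.14 ± 0.09). It was called lower without ZT14 replicate B or without ZT18 replicate C, at log2 values of -0.25 and -0.24. LHCB1 copies are near-identical and may share reads. In chlorophyll synthesis 6 of 25 rose (24%, near the 18.1% of all genes) and 8 fell (32%, against 19.5%). HEMA1, at the entry of the pathway, rose from 53.7, 74.1 and 44.9 CPM to 154, 128 and 146 CPM (log2 1.3 ± 0.16, adjusted p = 1.74e-07), PORB, a protochlorophyllide reductase, rose 1.76-fold, and CAO, which makes chlorophyll b, fell 1.97-fold. The 8 members that fell were 4 without ZT18 replicate B and 5 without ZT14 replicate B or without ZT18 replicate A. For the Calvin cycle and photorespiration 6 of 27 rose (22.2%, near the 18.1% of all genes) and 10 fell (37%), none by 2-fold, and 3 rose without ZT14 replicate A.

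Of 38 light receptors and their partners 9 rose (23.7%, near the 18.1% of all genes) and 18 fell (47.4%, against 19.5%). PHYA, the phytochrome that builds up in darkness, rose from 59, 84.6 and 68.6 CPM to 123, 116 and 103 CPM (log2 0.69 ± 0.09, adjusted p = 1.51e-08), and CRY1 rose 1.38-fold. PHYB fell 1.26-fold and the phototropin PHOT2 1.54-fold. PIF4, a growth-promoting factor that phytochrome degrades, went from 9.02, 8.74 and 8.19 CPM to 1.34, 1.05 and 1.51 CPM (log2 -2.73 ± 0.19, adjusted p = 1.02e-15). BBX24, a B-box repressor of light responses, fell from 38.6, 45.4 and 42.7 CPM to 7.13, 4.68 and 7.96 CPM (log2 -2.68 ± 0.11, adjusted p = 5.45e-23). The ZT10 means of PIF4 and BBX24 were 110.5 and 146 CPM, so in CPM most of their fall from ZT10 had come before ZT14. As a fold change, BBX24 fell more across the step (6.43-fold, from a mean of 42.2 to 6.59 CPM) than from ZT10 to ZT14. PAR1, an inhibitor of shade growth, rose 3.51-fold. BBX31, under 1 CPM in all 6 libraries, was called lower but not when ZT14 replicate A, ZT18 replicate A or ZT18 replicate B was left out, at log2 values of -2.37, -2.49 and -2.45. PHOT1 and CRY2 were not called, at log2 0.06 ± 0.08 and 0.09 ± 0.06.

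Of 34 auxin and growth genes 7 rose (20.6%, near the 18.1% of all genes) and 15 fell (44.1%, against 19.5%). XTH4, a wall-remodelling enzyme, rose from 154, 188 and 184 CPM to 565, 538 and 522 CPM (log2 1.63 ± 0.11, adjusted p = 1.6e-12). The expansin EXPA11 fell from 33.7, 33.8 and 39.1 CPM to 10.6, 12.2 and 11.1 CPM, and EXPA8 fell 3.02-fold. SAUR20 and SAUR21, small auxin-induced growth proteins, fell 5.43-fold and 5.85-fold, and SAUR22 went from 2.23, 2.6 and 1.64 CPM to 0, 0.0955 and 0 CPM. Shared reads may be split between these near-identical SAUR copies. Of 33 hormone genes 10 rose and 10 fell (30.3% each, against 18.1% and 19.5% of all genes). ACS11, a 1-aminocyclopropane-1-carboxylate synthase, rose from 0.111, 0.104 and 0.378 CPM to 3.72, 3.15 and 2.72 CPM (log2 3.99 ± 0.45, adjusted p = 1.24e-09). ACS8, with no counts at ZT14 and 17 at ZT18, was also called higher. In the jasmonate pathway LOX2 went from 921, 1146 and 1048 CPM to 353, 259 and 364 CPM (log2 -1.67 ± 0.28, adjusted p = 2.42e-05), AOS fell 2.05-fold and OPR3 1.68-fold. The abscisic acid enzyme NCED3 fell 2.74-fold, and the brassinosteroid enzyme CPD rose 1.88-fold.

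Cold-response genes had the lowest median, -1.99, or -1.93 with the 2 genes that had no counts in a group set at the bound that 3 counts over the group allow. Of 15 members 10 fell (66.7%, against 19.5% of all genes), 1 rose and 4 were not called. Of the 10, 8 fell at least 2-fold, beside 3.27% of all genes. COR413-PM1, a membrane protein, went from 204, 194 and 188 CPM to 42.1, 41.4 and 50 CPM (log2 -2.14 ± 0.08, adjusted p = 2.28e-23). COR78 fell 4.92-fold, COR413IM1 5.43-fold and KIN2 9.98-fold, although KIN2 and KIN1 may share reads. KIN2 and COR15A had ZT10 means of 505 and 639 CPM, above their ZT14 means of 183 and 263 CPM. CBF3, an activator of these genes, was at 0.891, 0.208 and 0.126 CPM at ZT14 and had no counts at ZT18, and it was not called without ZT14 replicate A. ZAT10 (log2 0.98 ± 0.39, adjusted p = 0.0491) was the member that rose, and its call was lost under 12 of the 18 settings, in each that left out a library among them. No temperature change is given in the labels.

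Genes of flavonoid synthesis fell or were not called, 13 (61.9%, against 19.5% of all genes) and 8 of 21. F3H, an enzyme early in the pathway, went from 58.8, 77.9 and 60.3 CPM to 27.1, 23.1 and 26.5 CPM, with the limit that a locus with 108% of its counts overlaps it. UGT78D1, a flavonol glycosyltransferase, fell 2.25-fold and the flavonol regulator MYB12 2.52-fold, while CHS at the entry of the pathway was not called (log2 -0.23 ± 0.13). Of 18 nitrogen and sulfur genes 4 rose and 4 fell, each 22.2% and near the shares of all genes (18.1% and 19.5%). NIA1, the second nitrate reductase, rose from 417, 362 and 371 CPM to 1023, 872 and 1188 CPM (log2 1.42 ± 0.25, adjusted p = 5.43e-05) and UPM1, which makes the siroheme of nitrite and sulfite reductase, rose 1.83-fold. All 3 APS reductases of sulfate assimilation fell, APR1 from 116, 125 and 120.1 CPM to 32, 22.5 and 25.6 CPM, APR2 2.4-fold and APR3 2.63-fold. SIR, sulfite reductase, rose 1.23-fold, GLU1, a glutamate synthase, fell 1.18-fold, and GLN2, a glutamine synthetase, was not called.

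Of 24 regulators of flowering 9 rose (37.5%, against 18.1% of all genes) and 11 fell (45.8%, against 19.5%). TEM2 and TEM1, repressors of the florigen gene FT, went from 19.9, 22 and 22.1 CPM to 89.7, 94.8 and 87.9 CPM and from 18.1, 22.1 and 25.1 CPM to 74.9, 70.6 and 68.8 CPM (log2 2.09 ± 0.10 and 1.72 ± 0.12, adjusted p = 1.59e-18 and 6.14e-13). FT itself was at 2.89, 3.33 and 2.9 CPM and then at 1.96, 1.72 and 1.31 CPM (log2 -0.87 ± 0.34, adjusted p = 0.0393). CDF1 and CDF3, repressors of CO, fell 2.72-fold and 2.97-fold, and the AP2-type repressor SNZ fell 5.09-fold. CO rose 1.64-fold, but it overlaps a locus with 1290% of its counts and is uncertain.

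In the remaining lists, counts are again to be read against 18.1% higher and 19.5% lower over all genes. Among heat and chaperone genes 10 of 16 fell (62.5%) and 2 rose, with BIP1, a chaperone of the endoplasmic reticulum, 1.58-fold lower. HSP70, a cytosolic chaperone, was called lower, but ZT14 replicate B was high at 106 CPM beside 58.5 and 65.8 CPM, and without it the log2 value was -0.32 and not called. Ribosome-assembly genes fell in 10 of 19 cases (52.6%), none by 2-fold, and in 6 without ZT14 replicate B. Redox genes rose in 7 (30.4%) and fell in 3 (13%) of 23 cases, and 4 rose when ZT18 replicate A was left out. CAT2, a leaf catalase, went from 358, 492 and 314 CPM to 836, 722 and 949.8 CPM. BCB, FER1 and AOX1D each had their highest value in ZT18 replicate A, and without it they were not called, at log2 values of 1.69, 0.95 and 1.41. FER1 also overlaps a locus with 52.2% of its counts. Water channels rose in 6 (35.3%) and fell in 3 of 17 cases, and 1 fell when ZT18 replicate A was left out. Of 16 markers of dividing cells 7 fell (43.8%) and none rose. Those that fell included genes of DNA synthesis, such as TSO2 (2.03-fold) and PCNA1 (1.72-fold), while the mitotic genes CYCB1;2 and KNOLLE were not called. KNOLLE overlaps a locus with 152% of its counts and is uncertain. Of 12 common reference genes ACT2 (1.52-fold), UBC9, TUB4 and ACT8 rose, GAPC2 fell 1.45-fold and 7 were not called, UBQ10 among them (log2 0.00 ± 0.07).

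**Figure D4:**
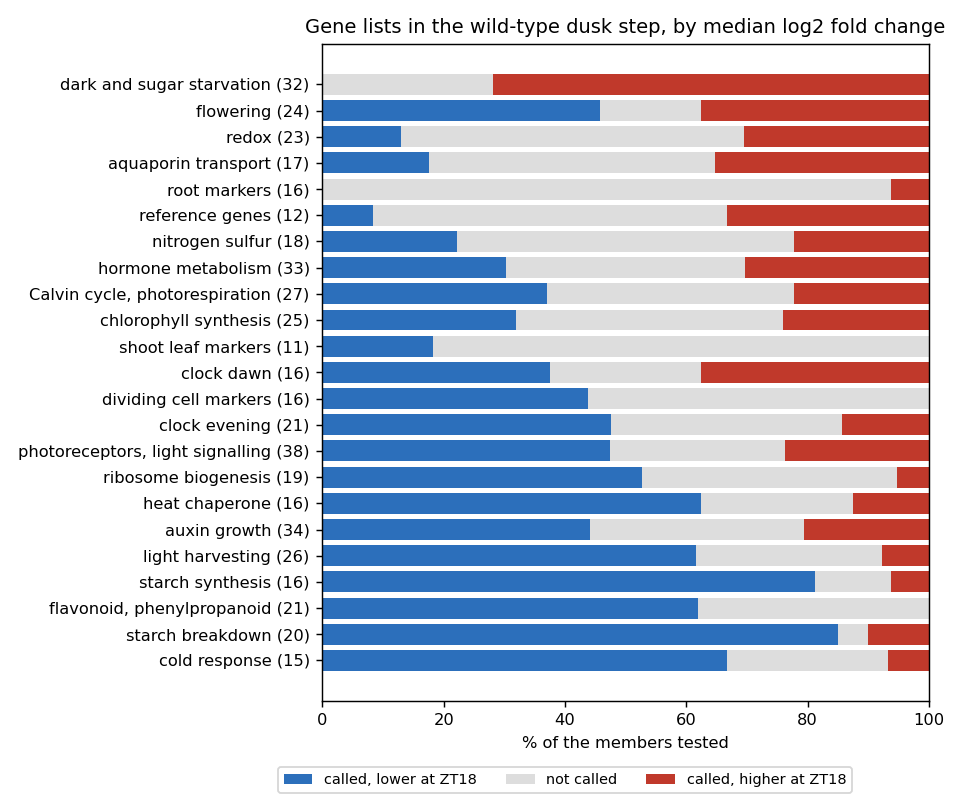
Bars give the percentage of tested members of each gene list (their number in parentheses) that were called lower (blue), not called (grey) or called higher (red) at ZT18, in order of the list's median log2 fold change. Dark and sugar starvation stands at the top with 23 of 32 members higher, and cold response at the bottom with 10 of 15 lower. The seed markers and the glucosinolate and iron lists are not drawn.

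Promoters were compared for letters known as binding motifs. Windows of 300 bases, 250 before and 50 after the start of the gene model (RefSeq, TAIR10.1), were read for 19691 of the tested genes. The evening element AAAATATCT, bound by CCA1, LHY and RVE8, was present on either strand in 39 of 649 windows of genes that fell at least 2-fold (6.01%, Wilson 95% interval 4.43 to 8.11), in 13 of 503 of genes that rose (2.58%, 1.52 to 4.37) and in 3% of all windows. The G-box CACGTG, bound by PIF and other bHLH factors and by bZIP factors such as HY5, was in 16.9% (14.3 to 20) of the windows of genes that fell, in 7.75% (5.72 to 10.4) of those of genes that rose and in 8.87% of all. The sugar-related motif TATCCA was in 22.3% (18.8 to 26.1) of the windows of genes that rose, 16% (13.4 to 19) of those of genes that fell and 16.6% of all, and the I-box core GATAAG in 19.5%, 18.2% and 14.9%. The telo-box AAACCCTAA of ribosomal genes was in 5 windows of genes that rose (0.994%, 0.425 to 2.31), in 2.31% (1.41 to 3.78) of those of genes that fell and in 3.12% of all. Among called genes of any size, TATCCA was in 17.9% of the windows of genes that rose and 17.5% of those that fell, and the telo-box in 2.23% and 3.65%. GATAAG and TATCCA matches overlapped in 306 windows, and 55 windows held both an evening element and a G-box. Intervals cover counting error only, genes are not independent of each other, and a match is a string of letters, not a site shown to be bound.

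The 250 bases before the start are printed for 7 genes described here, to show these motifs in genes that carry the result, 3 with evening elements, 3 with G-boxes that fell and LHY, which holds a G-box and rose. Evening elements and G-boxes are in capitals, and each sequence reads 5′ to 3′ on the strand of its gene.
GRP7: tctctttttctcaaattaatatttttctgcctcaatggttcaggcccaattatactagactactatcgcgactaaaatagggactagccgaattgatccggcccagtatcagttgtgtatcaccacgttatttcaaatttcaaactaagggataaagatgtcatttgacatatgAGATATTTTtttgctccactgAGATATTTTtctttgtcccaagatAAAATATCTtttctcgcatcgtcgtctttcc
BBX24: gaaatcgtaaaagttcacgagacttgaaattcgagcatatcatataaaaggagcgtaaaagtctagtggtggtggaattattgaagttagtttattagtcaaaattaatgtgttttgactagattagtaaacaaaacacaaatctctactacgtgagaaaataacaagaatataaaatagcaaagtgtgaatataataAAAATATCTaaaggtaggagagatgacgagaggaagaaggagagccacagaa
ISA3: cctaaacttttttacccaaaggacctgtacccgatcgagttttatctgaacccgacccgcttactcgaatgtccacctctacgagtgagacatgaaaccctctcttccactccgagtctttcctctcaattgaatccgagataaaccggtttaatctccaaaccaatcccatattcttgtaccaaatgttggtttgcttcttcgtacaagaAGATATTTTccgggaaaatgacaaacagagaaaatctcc
COR15A: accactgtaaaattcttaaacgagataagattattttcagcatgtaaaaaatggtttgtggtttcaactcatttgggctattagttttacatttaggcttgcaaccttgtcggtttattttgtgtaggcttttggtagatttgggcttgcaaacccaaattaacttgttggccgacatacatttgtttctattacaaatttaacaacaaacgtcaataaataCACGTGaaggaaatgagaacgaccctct
BHLH100: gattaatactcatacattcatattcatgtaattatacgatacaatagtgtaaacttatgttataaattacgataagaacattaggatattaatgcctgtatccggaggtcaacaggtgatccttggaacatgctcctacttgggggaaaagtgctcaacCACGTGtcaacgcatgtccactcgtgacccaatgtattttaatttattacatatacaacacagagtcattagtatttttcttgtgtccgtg
BTS: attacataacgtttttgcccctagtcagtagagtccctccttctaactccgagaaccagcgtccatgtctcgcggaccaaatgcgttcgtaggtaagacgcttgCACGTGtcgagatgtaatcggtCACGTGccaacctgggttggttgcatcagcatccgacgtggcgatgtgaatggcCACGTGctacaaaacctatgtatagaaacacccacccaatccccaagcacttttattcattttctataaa
LHY: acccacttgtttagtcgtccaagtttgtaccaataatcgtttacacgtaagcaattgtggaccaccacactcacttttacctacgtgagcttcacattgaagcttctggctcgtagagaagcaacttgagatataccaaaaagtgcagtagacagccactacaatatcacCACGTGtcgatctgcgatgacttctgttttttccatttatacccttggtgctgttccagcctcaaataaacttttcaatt

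GRP7 (chr2:9266558-9266807, minus strand) holds 3 evening elements, which begin 76, 55 and 31 bases before the gene start. BBX24 (chr1:1829984-1830233, minus strand) holds 1, at 52 bases, and ISA3 (chr4:5783659-5783908, plus strand) 1, at 39 bases. The G-box of COR15A (chr2:17712331-17712580, minus strand) begins 28 bases before the start and that of BHLH100 (chr2:17199455-17199704, minus strand) 91 bases before it. BTS (chr3:6273716-6273965, plus strand), a ubiquitin ligase that limits the iron-deficiency response, holds 3 G-boxes at 146, 124 and 70 bases, and its level went from 387, 395 and 480.0 CPM to 102, 122 and 131 CPM (log2 -1.83 ± 0.19, adjusted p = 1.81e-08). LHY (chr1:37872-38121, minus strand) has its G-box 80 bases before the start.

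The same step in link1link2, a mutant of the clock coactivators that the labels call LINK1 and LINK2 and that were taken to be LNK1 and LNK2, shares no library with the wild-type step. Columns were assigned to the mutant by elimination. LNK1 in the libraries labelled link1link2 was at 26.2 ± 3.46 CPM at ZT14 and 4.9 ± 0.469 CPM at ZT18 and LNK2 at 25.1 ± 3.81 and 28 ± 1.83 CPM (SD, n = 3). Wild type was at 4.58 ± 0.931 and 0.464 ± 0.143 CPM for LNK1 and at 7.58 ± 0.568 and 7.36 ± 1.28 CPM for LNK2, so both genes were higher in the libraries labelled link1link2 at both times. The position of the mutations in these genes was not analysed here, and directions drawn from these libraries rest on their labels. Of the 1201 genes that changed at least 2-fold in wild type, 1011 were called in the same direction in the libraries labelled link1link2 and 8 in the opposite one, beside 9923 (48.4%) of all tested genes called in either direction in those libraries. The difference of the steps was called for 1440 genes (7.02%), 653 with a more positive and 787 with a more negative step in link1link2. With upper-quartile scaling these numbers were 520 and 1059.

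RVE8 rose in wild type as given above, while in the libraries labelled link1link2 it went from 11.2 to 5.56 CPM, a difference of the steps of -2.60 ± 0.21 on the log2 scale (SE, adjusted p = 1.29e-11). TOC1 fell in wild type and was at 103 and 116 CPM in link1link2 (difference 1.06 ± 0.08, adjusted p = 2.2e-12). NDA1, an alternative respiratory dehydrogenase, went from 4.01, 3.64 and 3.66 CPM to 11.6, 13.4 and 14 CPM in wild type and from 31.4 to 18 CPM in link1link2 (difference -2.57 ± 0.18, adjusted p = 4.03e-13). The other 3 genes with the smallest p for the difference, among genes averaging 3 or more in log2 CPM, were AT4G19160, AT1G64500 and TZP, a light-signalling zinc-knuckle protein, with differences of 1.14 ± 0.10, -1.53 ± 0.14 and -1.07 ± 0.10. For GI, SEN1, CYP79F1 and PRR7 the difference was not called, at -0.91 ± 0.56, 1.49 ± 0.55, -0.16 ± 0.47 and 0.09 ± 0.28. Those of GI and SEN1 were large but imprecise, so equal steps are not shown.

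**Figure D5:**
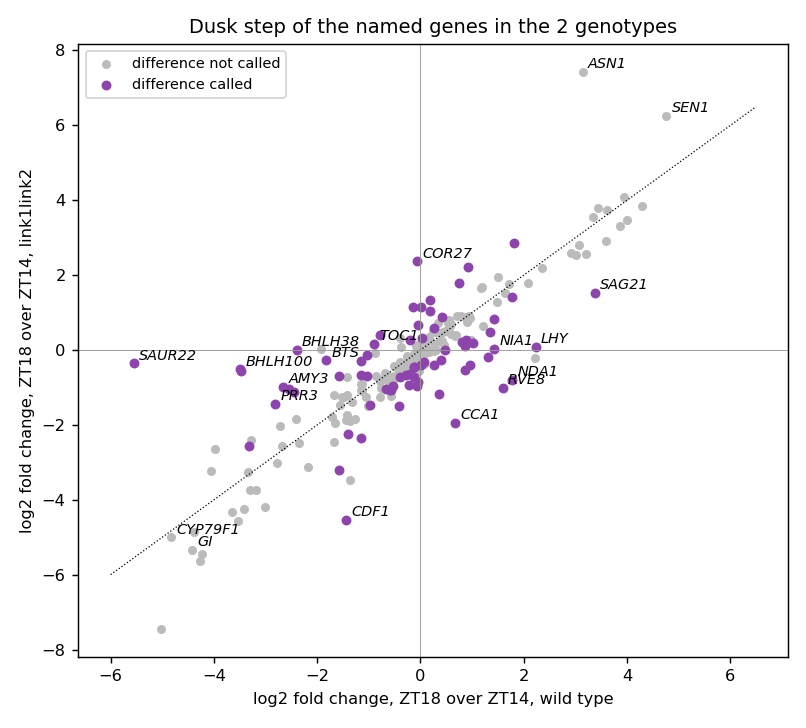
Each point is 1 of 228 named genes with at least 20 counts in a wild-type group, with its log2 fold change, ZT18 over ZT14, in wild type on the x axis and in link1link2 on the y axis. Purple points are the 71 genes whose steps differ at an adjusted p under 0.05, and the dotted line marks equal steps.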

How the data were processed

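Poly(A) RNA libraries were made with a TruSeq procedure and random hexamers, per the labels' protocols. The authors deposited a table of raw read counts per locus for the long-day libraries, mapped to TAIR10 per the submitters' processing notes. The aligner, the counter and the handling of strand and of reads with several matches are not given in the sources used here. Genes were matched to RefSeq TAIR10.1 for names and promoters.

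All 36 libraries (12 groups of 3) were fitted with edgeR 4.0.16 (R 4.3.3) in its robust quasi-likelihood test, with TMM factors, its default filter on low counts and Benjamini-Hochberg adjustment over 20518 genes, at a threshold of 0.05. CPM values were computed from the counts with the TMM factors. SE is the log2 fold change divided by the root of the F statistic. Between 7539435 and 9393758 counts per library limit the precision of low genes. DESeq2 1.42.0, limma 3.58.1, other scalings and filters, and the omission of each library were tried as alternatives, and the fit was tested on simulated data.

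Wild-type columns carry the accession's name, and the other long-day columns were assigned to link1link2 by elimination. Column letters A, B and C were not matched to replicate numbers, and same-lettered deviations had r of -0.153, -0.116 and 0.0828 over 20518 genes, while different letters ranged from -0.0876 to 0.194, so no pairing was used. The continuous-light libraries were not used here.

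Named genes are the 12 largest rises and falls whose log2 CPM averaged 3 or more, with no overlap between groups, the 5 largest rises and falls in CPM, all clock genes, up to 4 called members per direction and 2 not called in each other list, and the 6 with the smallest p for a difference between genotypes. Further list members are named as examples after their values were seen. Members and lists were chosen with earlier results of these data known, and the glucosinolate and iron lists after the values were seen.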

Additional observations from a re-analysis of the deposited data

Results flagged for a closer look

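The step from ZT14 to ZT18 differed between wild type and the libraries labelled link1link2 for 1440 genes (7.02%) at an adjusted p under 0.05, by the interaction of genotype and time in edgeR's quasi-likelihood test. Among the 237 named genes 72 differed, 33 of them by at least 1 on the log2 scale, with 18 steps more positive in link1link2 and 15 more negative. The named genes include 6 chosen for the smallest p of this same difference, so these counts are partly set by the choice. All values here are the step in link1link2 minus the step in wild type, on the log2 scale.

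Of 16 dawn-class clock genes 5 differed, with -2.60 for CCA1, -2.15 for LHY, -2.60 for RVE8, -3.75 for LNK3 and -0.59 for RVE4, although CCA1 and LNK3 had few counts in wild type. Of 21 evening genes 10 differed, and of those past 1 on the log2 scale PRR3 differed by 1.38, TOC1 by 1.06, BOA by 1.28, COR27 by 2.43, AT4G33980 by 1.13 and JMJD5 by 1.2. In flowering, CDF1 differed by -3.08 and CDF3 by -1.64.

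Among light-signalling genes the differences were 1.05 for PAR1, 1.32 for BBX20, 1.06 for RUP1 and -1.2 for BBX25, which overlaps another locus. For photosynthesis and starch they were -1.37 for LHCB4.2, -1.5 for HEMA1, 1.67 for AMY3 and -1.40 for GBSS1. The auxin-induced SAUR22, SAUR15, SAUR21 and SAUR20 differed by 5.19, 2.90, 1.5 and 1.32, the values of SAUR22 and SAUR15 resting on few counts in wild type.

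Of 20 iron genes, a list chosen after values were seen, 4 differed, with 2.98 for BHLH100, 2.40 for BHLH38, 1.56 for BTS and 1.58 for FRO3. At ZT14 the wild-type means of BHLH100, BHLH38 and BTS were 104, 67.4 and 421 CPM, against 11.2, 9.5 and 136 CPM in link1link2. At ZT18 they were 9.13, 12.6 and 119 CPM against 7.52, 9.08 and 113 CPM, so these genotypes lay apart mainly at ZT14. SAG21 differed by -1.85, NIA1 by -1.39 and NDA1 by -2.57. The remaining differences were 1.14 for AT4G19160, -1.53 for AT1G64500 and -1.07 for TZP.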

How the results depend on the processing

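The count of 7712 genes called in the wild-type step ranged from 6801 with DESeq2 to 7761, the latter with the column letter as a replicate block, and from 6704 to 7167 when a library was left out. Changes of at least 2-fold were called for 1099 genes with the 6 libraries alone, for 1204 with the block and for 1133 to 1235 without a library. The difference between genotypes was called for 1081 genes when the 4 groups were fitted alone, 1503 with the block, 1579 with upper-quartile factors and 1097 to 1733 without a library. Of 4256 gene values under alternatives, 4133 kept their call and direction, 102 lost the call, 21 gained one and 0 reversed, in 36 of the 237 named genes. With genes that fell or rose by any amount in place of 2-fold, the evening element was in 4.27% and the G-box in 12% of the promoters of genes that fell, and TATCCA in 17.9% of those of genes that rose, against 17.5% for genes that fell. The telo-box was then in 2.23% and 3.65% of the promoters of genes that rose and fell. The cause was not tested. Low counts limit PRR9, ASG4, BBX31, CBF3 and SAUR22.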

Other observations

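A list of 36 glucosinolate genes was drawn up after enzymes of this pathway were seen among the largest falls, so its counts are a description. Of 35 tested members 29 fell (82.9%, against 19.5% of all genes), 1 rose (2.86%, against 18.1%) and 5 were not called. The median log2 change was -1.37. The methionine-derived branch held the largest falls: MYB29, a regulator of that branch, went from 27.3, 24.7 and 25.8 CPM to 3.2, 3.34 and 4.23 CPM (log2 -2.85 ± 0.16, adjusted p = 2.59e-18 in edgeR's quasi-likelihood test), CYP83A1 fell 4.06-fold and BCAT4, at the start of chain elongation, 4.86-fold. In the tryptophan-derived branch CYP83B1 fell 1.69-fold and CYP79B2 1.25-fold, CYP79B3 was not called (log2 -0.12 ± 0.08), and MYB51, a regulator of that branch, rose 1.5-fold. No test compared the branches. The enzymes that supply activated sulfate, APK1 and APK2, fell 2.69-fold and 3.15-fold.

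A list of 20 iron genes was chosen in the same way. Of these, 11 fell (55%, against 19.5% of all genes), 2 rose (10%, against 18.1%) and 7 were not called. The median was -0.95. The 4 related factors BHLH38, BHLH39, BHLH100 and BHLH101 fell 5.29-fold, 3.26-fold, 11.3-fold and 3.81-fold. However, BHLH101 overlaps a locus with far more counts and BHLH38 one with 49.5% of its counts. PYE, a regulator of iron homeostasis, fell 2.84-fold and OPT3, a phloem iron transporter, 2.48-fold. The root uptake genes IRT1 and FRO2 had overlapping groups and were not called, at log2 -0.39 ± 0.43 and -0.88 ± 0.42, and FIT1, their activator, was at 0.03 ± 0.18.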
